A study of Mus musculus with 127 samples.

Results

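The 39 genes described here belong to the antioxidant and Nrf2 response, and were picked by name from the 53465 genes of a single-cell count table. Each was matched from its Ensembl identifier to a mouse symbol, and all 39 were in the table. The table holds 113 striatal neurons and 14 cortical astrocytes from cultures of newborn C57BL/6 mice, each cell sucked into a patch pipette at day 15 in vitro and sequenced on its own. The series text counts 117 neurons, and 113 were analysed here. Neurons grew on islands of cortical astrocytes of 200 µm, so glia lay beneath every neuron. Lentivirus carried exon 1 of human huntingtin fused to GFP, with either 97 glutamines (97Q) or 25 glutamines (25Q). RGFP109, an inhibitor of histone deacetylases 1 and 3, was given at 100 nM from day 6 and again every 3 days, and vehicle was DMSO. The neuron groups were 97Q with RGFP109 (26 cells), 97Q with vehicle (26 cells), 25Q with RGFP109 (23 cells), 25Q with vehicle (29 cells) and an empty vector (9 cells). The astrocytes are labelled wild type and untreated. The 4 huntingtin groups ran through 3 batches named in the labels, whereas the empty vector neurons and the astrocytes were all in batch 3. Astrocytes and neurons therefore differ in cortex against striatum and in transduction as well as in cell type, and these cannot be told apart.

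Nrf2, the product of Nfe2l2, is a transcription factor held in the cytoplasm and marked for degradation by Keap1. When oxidants or electrophiles modify Keap1, Nrf2 accumulates, enters the nucleus and binds antioxidant response elements near genes for glutathione synthesis, thioredoxin recycling, quinone reduction and detoxification. In brain cultures this response is known mainly from astrocytes, which supply glutathione precursors to neurons.

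The element Nrf2 binds has a core written TGACNNNGC, where N is any base. Both strands of the 250 bases before each start RefSeq gives a gene were searched (GRCm38.p6), and the Txnrd1 window shown lies before an internal alternative start. An entry existed for 34 members and 7 of these (20.6%) held the core, against 11.5% of 27025 genes with an entry. Gclc, Hmox1, Prdx6, Gsr and Msra had no entry and were not searched. The members with the core were Gclm, Gstm5, Mgst1, Nfe2l2, Prdx1, Sod1 and Txnrd1. A match is a description of letters and not a site in use. The windows below show 5 of them, the ones that overlap no annotated exon of their own gene, so that the letters can be set beside the levels that follow. Capitals mark the core, or its reverse complement where it lies on the other strand, and all are written 5′ to 3′ along the gene.
Nfe2l2, chr2:75704875-75704913, minus strand: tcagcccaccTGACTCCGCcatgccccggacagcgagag
Gclm, chr3:122245403-122245451, plus strand: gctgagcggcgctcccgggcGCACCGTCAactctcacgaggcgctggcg
Txnrd1, chr10:82859094-82859142, plus strand: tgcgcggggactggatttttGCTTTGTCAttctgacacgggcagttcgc
Prdx1, chr4:116685446-116685494, plus strand: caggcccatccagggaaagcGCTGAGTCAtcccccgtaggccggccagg
Sod1, chr16:90220686-90220734, plus strand: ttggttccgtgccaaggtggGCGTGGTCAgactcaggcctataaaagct

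Libraries held 999700 to 9263305 counts (median 4440040), and a level below is given as a cell's count scaled to its total (CPM). The labels held in outline. All of the 15 listed neuron markers had a median of at least 1 CPM in every neuron group except 25Q with RGFP109, where 14 did, against 2 in astrocytes. Of 20 astrocyte markers, 16 had a median of at least 1 CPM in astrocytes, and S100b, Ntsr2 and Gjb6 were at a median of 0 there. Summed astrocyte markers ran from 19385 to 46740 CPM in astrocytes (median 33152) and from 25.7 to 18292 CPM in neurons (median 1440). In 19 of the 113 neurons the sum was above 3315 CPM, which is the astrocyte median divided by 10, and these are called glial-rich. They were 4 of 26 with 97Q and RGFP109, 3 of 26 with 97Q and vehicle, 3 of 23 with 25Q and RGFP109, 8 of 29 with 25Q and vehicle, and 1 of 9 with empty vector. The highest, cell 22 of the 97Q RGFP109 group, reached 55.2% of the astrocyte median. Striatal projection neuron markers were incomplete, with 5 to 8 of 14 at a median of 1 CPM or more in each neuron group.

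The library labelled 97Q RGFP109 cell 9, from batch 2, stood apart from all other neurons. Its most abundant genes were Spp1 (106470 CPM), Mmp12 (101852 CPM) and Lyz2 (60533 CPM), genes of activated macrophages, with medians of 0, 0 and 0.185 CPM in the other neurons. Gad1, the GABA-synthesizing enzyme of these neurons, was 32.7 CPM there against a median of 1071 CPM. Of the listed neuron markers only Nefl (103 against 54.5 CPM) and Nefm were above the other neurons' median. Of the striatal projection neuron markers only Bcl11b (47.1 against 10.7 CPM) and Foxp2 were. Microglia markers were mixed, with Tyrobp at 608 CPM and Cx3cr1, P2ry12 and C1qa at 0. Whether the library is a neuron, another cell or a mixture was not tested. Prdx1, a peroxide-reducing peroxiredoxin, was 60025 CPM in cell 9, and the next neuron had 1446 CPM. Nqo1 stood at 2654 CPM in cell 9 and at most 83.6 CPM in any other neuron. Slc7a11, the cystine carrier, was 857 CPM there and at most 73.4 CPM elsewhere, and Mgst1, a membrane glutathione transferase, 1855 CPM and at most 894 CPM. Of the 39 members, 5 had their highest neuron level in this library and 5 in cell 22. Values without this library are given beside the named neuron results that it moves.

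**Figure D1:**
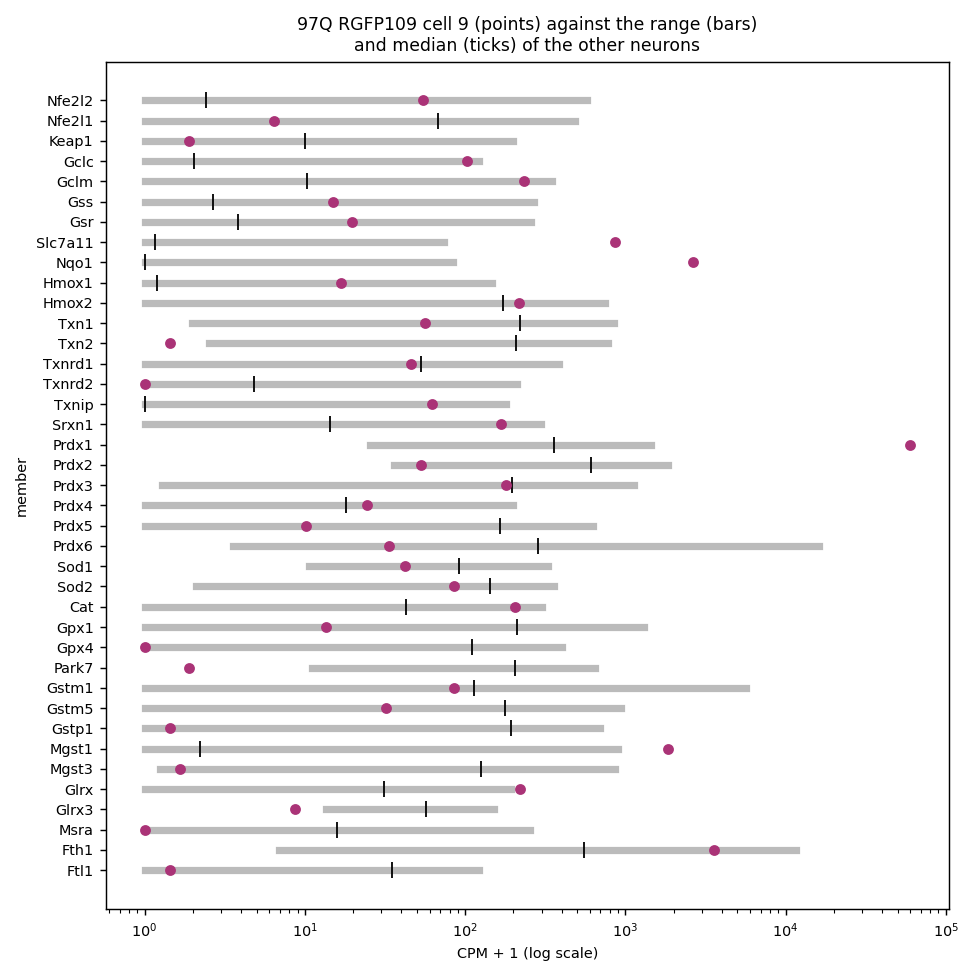
Levels of the 39 members in the library 97Q RGFP109 cell 9 (points), against the range (bars) and median (ticks) of the other 112 neurons, in CPM + 1 on a log axis. Prdx1, Nqo1, Slc7a11 and Mgst1 lie to the right of every other neuron, Prdx1 at 60025 CPM.

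Astrocytes against neurons was compared within batch 3, with the cells of a group summed. There is 1 astrocyte sum, so there is no test, and a gene counted as apart where the astrocyte sum was at least 4-fold from the nearest of the 5 neuron sums. By this rule 8 members were higher in astrocytes and 0 lower: Nfe2l2, Prdx6, Gstm1, Txnip, Nqo1, Hmox1, Mgst1 and Cat. These are 8 of the 38 members with a mean of at least 5 CPM, where 6.8% of 11816 genes were higher and 12.9% lower. That mean is over 6 sums and includes the astrocyte sum. Txnip (0.748 to 5.16 CPM in neuron sums) and Nqo1 (0.234 to 7.45 CPM) passed only through the astrocyte sum. These 2 members could therefore not have been called lower. The same filter was applied to all genes. The astrocyte sum was above all 5 neuron sums in 21 of the 38 members, below all 5 in 6 and between them in 11, while of all genes 2844 were above and 4786 below. Scaling the 6 sums by TMM moved the median difference of all genes between the astrocyte and median neuron sum from -0.38 to -0.06 on the log2 scale. Relative to that shift, 25 members were above all 5 and 4 below, with Srxn1 and Prdx2 no longer below. Under TMM 10 members were 4-fold higher, with Gclc and Gpx1 added, among 1019 genes higher and 1305 lower.

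**Figure D2:**
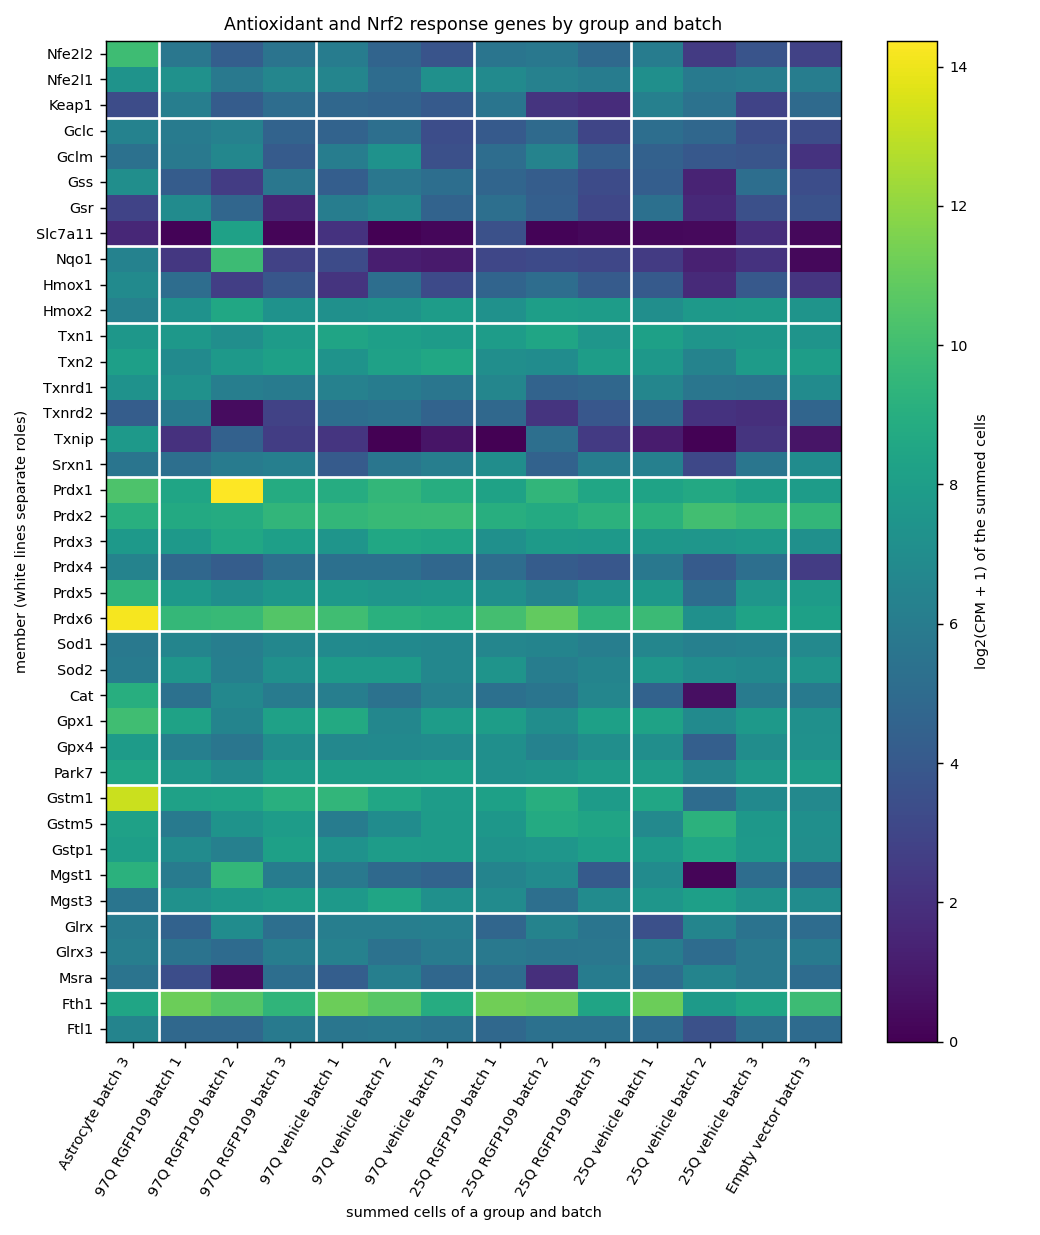
Colour gives log2(CPM + 1) of the summed cells of each group and batch, astrocytes first, for the 39 members ordered by role. The astrocyte column is brightest at Prdx6 and Gstm1, and the bright Prdx1 cell of 97Q RGFP109 batch 2 is the sum that contains cell 9.

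Among the regulators, Nfe2l2 itself showed the clearest separation. The gene lies at chr2:75675513-75704641 on the minus strand (GRCm38, GENCODE M21). Its astrocyte sum was 951 CPM, and the batch 3 neuron sums were 45.3 CPM for 97Q with RGFP109, 12.4 CPM for 97Q with vehicle, 28.6 CPM for 25Q with RGFP109, 12.1 CPM for 25Q with vehicle and 6.2 CPM for empty vector. That is 21-fold over the highest neuron sum, and 33.2-fold without cell 22, which holds 90.9% of that sum. Astrocytes ranged from 411 to 2103 CPM with a median of 874 CPM, and the 64 batch 3 neurons from 0 to 578 CPM with a median of 1.14 CPM. Only cell 22 lay within the astrocyte range, and without it the groups did not overlap. Keap1, which targets Nrf2 for degradation, was 9.19 CPM in astrocytes against 2.48 to 34.2 CPM in the neuron sums, and so lay between them. Its exons share 10.9% of their length with another gene, and the strand used in counting is not stated. Nfe2l1, a related factor, was 166 CPM in astrocytes against 64.2 to 147 CPM in neurons, close to the highest neuron sum.

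Gclc, Gclm and Gss, of glutathione synthesis, were above all neuron sums and short of the 4-fold rule in CPM. Gclc (chr9:77754535-77794485, plus strand), the catalytic subunit of the rate-limiting enzyme, was 82.7 CPM in astrocytes against 7.12 to 23.1 CPM in neurons, 3.59-fold over the highest. It passed the rule under TMM (4.56-fold) and without cell 22 (4.44-fold). Gclm, the modifier subunit, was 40.5 CPM against 3.34 to 18.8 CPM, and Gss, which completes glutathione, 138 CPM against 8.92 to 50.2 CPM. Gclc reached 1 CPM in 12 of 14 astrocytes (85.7%, Clopper-Pearson 95% interval 57.2% to 98.2%) and in 22 of 64 batch 3 neurons (34.4%, interval 22.9% to 47.3%). These intervals cover counting of cells only, since the astrocytes are 1 batch and the neurons pool 5 groups. Median totals were 7441964 counts in astrocytes and 4699794 counts in batch 3 neurons, and free RNA was not measured, so a share of cells may move with depth. Slc7a11 was low in both, at 2.03 CPM in astrocytes and up to 2.75 CPM in neuron sums, and fell below the filter.

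Of the quinone and heme enzymes, Nqo1 and Hmox1 were 4-fold higher in astrocytes and Hmox2 was not. Nqo1, a quinone reductase, was 83.1 CPM in astrocytes against 0.234 to 7.45 CPM in the neuron sums, with a median of 72.8 CPM in astrocyte cells and 0 in batch 3 neurons. It reached 1 CPM in 9 of 14 astrocytes and 8 of 64 batch 3 neurons. Hmox1, inducible heme oxygenase, was 117 CPM in the astrocyte sum against 3.6 to 16.7 CPM in the neuron sums. Its cells overlapped, with 33 of 64 batch 3 neurons above the lowest astrocyte. Hmox2, the constitutive form, was lower in astrocytes at 80 CPM against 159 to 244 CPM, although 40.2% of its exon length is shared with another gene. The astrocyte sum was thus above all neuron sums for the inducible form and below them for the constitutive one, under both scalings.

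Of the 6 thioredoxin genes 1 was apart by the 4-fold rule. This was Txnip, which inhibits thioredoxin, at 217 CPM in astrocytes against 0.748 to 5.16 CPM in neuron sums. Txnrd1, which reduces thioredoxin, was 157 CPM against 27.2 to 123 CPM. Srxn1, which repairs over-oxidized peroxiredoxins, was 47.1 CPM in astrocytes against 49.9 to 124 CPM, and lay within the neuron sums under TMM. Txn1, thioredoxin itself, was 194 CPM in astrocytes against 173 to 237 CPM in neuron sums, and above them all under TMM.

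Peroxiredoxins divided by member. Prdx6 (chr1:161240112-161251219, minus strand), which carries a single catalytic cysteine and uses glutathione, was 18563 CPM in astrocytes against 287 to 1499 CPM in neuron sums, 12.4-fold over the highest and 28.4-fold without cell 22. Its cells ran from 6073 to 32591 CPM in astrocytes and from 2.58 to 16281 CPM in batch 3 neurons, the highest again being cell 22. Prdx1 was 1287 CPM in astrocytes against 247 to 496 CPM. Prdx2, another peroxide reductase, was 538 CPM in astrocytes against 599 to 852 CPM, within the neuron sums under TMM, and all 64 batch 3 neurons lay above the lowest astrocyte.

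Catalase and glutathione transferases followed. Cat, which decomposes hydrogen peroxide, was 510 CPM in astrocytes against 57.7 to 95.8 CPM in neurons, with 2 of 64 neurons above the lowest astrocyte. Gstm1 (chr3:108012255-108017973, minus strand), a cytosolic transferase, was 9407 CPM against 107 to 530 CPM, and Mgst1 585 CPM against 16.1 to 65.5 CPM. Without cell 22 their ratios to the highest neuron sum were 37.7 for Gstm1 and 17.2 for Mgst1, against 17.7 and 8.93 with it. Mgst3, a membrane relative of Mgst1, was 46.5 CPM in astrocytes against 121 to 258 CPM in neurons. Sod1 and Sod2, which dismute superoxide, were 55 and 61.2 CPM in astrocytes against 68.5 to 106 CPM and 87.2 to 175 CPM in neurons.

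In 0 of the 38 members were all astrocytes above all 64 batch 3 neurons, against 0.0762% of genes, and in 0 were they all below, against 0.406%. Without cell 22, Nfe2l2, Prdx6 and Gstm1 did, against 0.186% of genes. Without all glial-rich neurons Cat joined them.

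**Figure D3:**
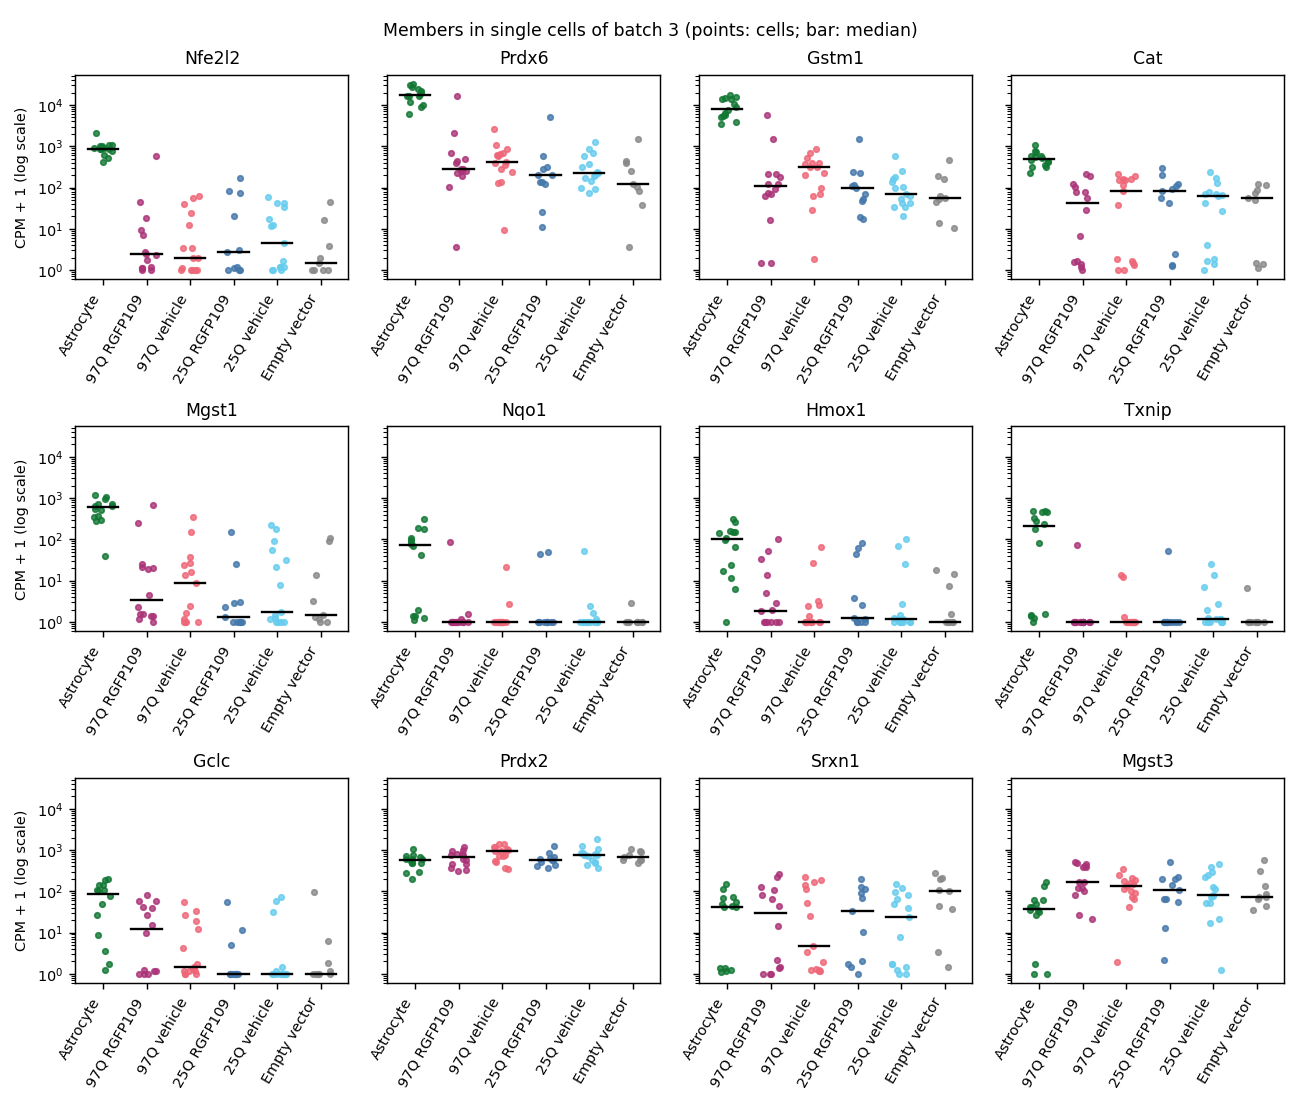
CPM + 1 (log axis) of 12 members in single cells of batch 3, with points for cells and bars for medians; astrocytes are at the left. Nfe2l2, Prdx6 and Gstm1 separate astrocytes from all but cell 22 of the 97Q RGFP109 neurons, while Prdx2 overlaps.

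Per kilobase of exon, Gstm1 (6387 CPM per kb) and Prdx6 (3864 CPM per kb) led the astrocyte members, ahead of Gpx1 (702 CPM per kb). In neurons Fth1, the ferritin heavy chain, stood at 305 CPM per kb and Prdx2 at 229 CPM per kb. Prdx1 stood at 313 CPM per kb over all neurons and at 131 CPM per kb without cell 9, below Prdx2.

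Of 66 other genes of the pathway, 56 passed the filter, and 14 were at least 4-fold higher in astrocytes and 5 lower. Among those higher in astrocytes, the largest ratios to the nearest neuron sum were Osgin1 (73.6-fold), Ptgr1 (20-fold), Gpx7 (15.1-fold), Gstt1 (14.3-fold) and Ephx1 (12.8-fold), the last an epoxide hydrolase at 2270 CPM in astrocytes against 38.2 to 177 CPM. Osgin1, Ptgr1 and Gpx7 were at most 1.03, 3.19 and 2.52 CPM in the neuron sums. They, among others, passed the filter only through the astrocyte sum and could not have been called lower. Their ratios rest on neuron levels near 0. The lower ones were Bach2, Ggct, Chac1, Slc1a1 and Glrx2, named after their values were seen, and Bach2, a repressor at related elements, was 0.0711 CPM in astrocytes against 7.41 to 16.9 CPM in neurons.

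Across the 64 batch 3 neurons, Spearman's rho with the summed astrocyte markers was 0.582 for Gstm1, 0.512 for Prdx6, 0.486 for Nfe2l2, 0.442 for Hmox1 and 0.439 for Mgst1, and -0.133 for Prdx2 and -0.203 for Mgst3. The points share libraries and depth, and the values are descriptions. Over the neurons of all batches, median Prdx6 was 2475 CPM in the 19 glial-rich neurons against 257 CPM in the other 94. This and the medians and ratios that follow pool batches for the neurons, so batch and glial content are not separated in them. Median Nfe2l2 was 44.3 CPM against 0.907 CPM, and median Mgst1 182 CPM against 0.474 CPM. Median Prdx2 was 587 CPM against 622 CPM, and Hmox2 149 CPM against 184 CPM. Higher medians in glial-rich neurons were not limited to members high in astrocytes. Median Srxn1 was 81.2 CPM against 9.62 CPM, Keap1 27.8 CPM against 6.15 CPM and Fth1 1339 CPM against 520 CPM. Per unit of marker, Prdx6 had a median ratio of 0.501 in astrocytes and 0.29 in glial-rich neurons, Gstm1 0.297 and 0.112, and Nfe2l2 0.0255 and 0.00914. Mgst1 went the other way, 0.016 in astrocytes and 0.028 in glial-rich neurons. The part of glial RNA in these neuron levels was not tested.

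**Figure D4:**
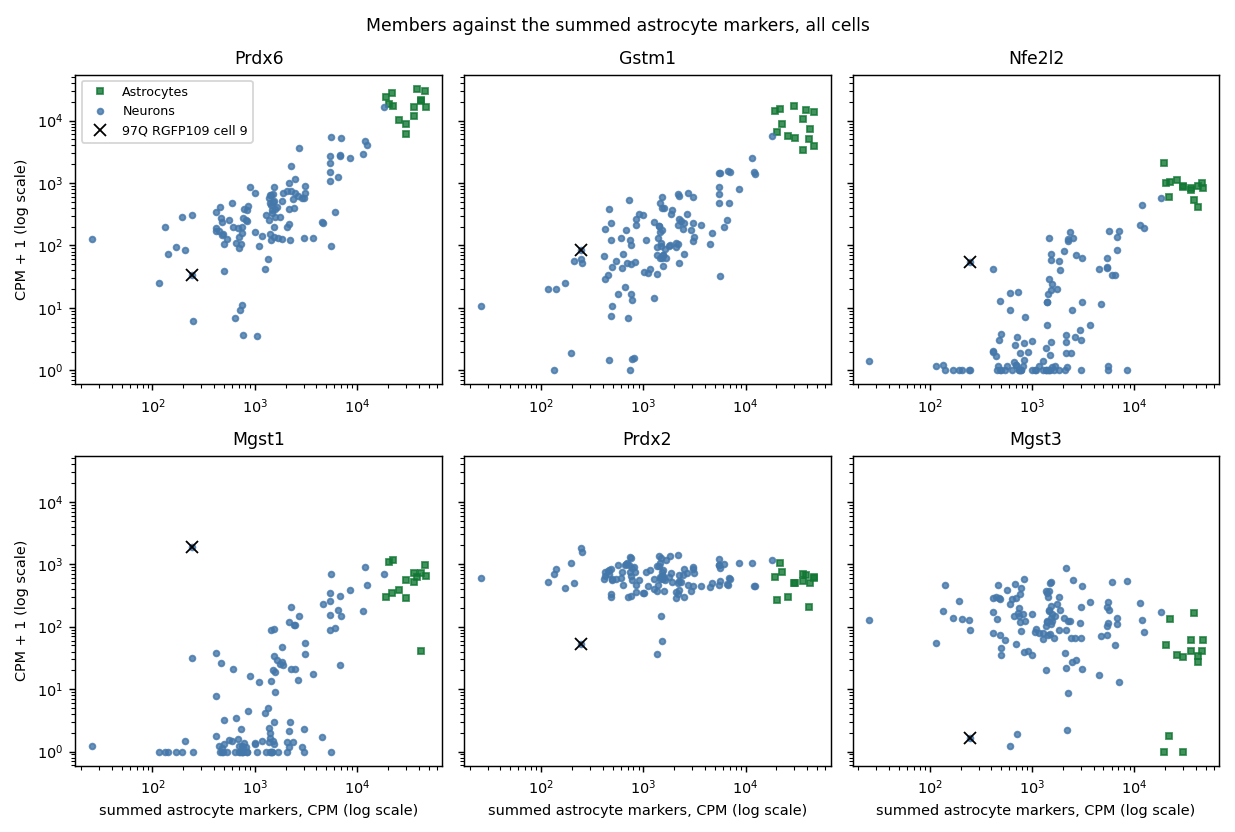
CPM + 1 of 6 members against the summed astrocyte markers in all neurons and astrocytes, both on log axes; squares are astrocytes, circles neurons, and the cross is 97Q RGFP109 cell 9. Prdx6, Gstm1, Nfe2l2 and Mgst1 are higher where the markers are higher, and Prdx2 and Mgst3 are not.

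97Q against 25Q neurons under vehicle asks whether expanded huntingtin moved the response. The 4 groups were summed per batch into 12 sums and tested with edgeR's quasi-likelihood test, with batch as a term and Benjamini-Hochberg adjustment over 15091 genes. No member was called, and none of all genes (0%). The lowest adjusted p among members was 0.969 in edgeR. At an unadjusted p under 0.05 there was 1 member, Gclm, against 3.96% of genes, and DESeq2 called 0 members and 213 genes. Gclm averaged 79.7 ± 75.8 CPM in 97Q sums and 16.2 ± 4.04 CPM in 25Q sums (SD, n = 3 each), a log2 fold change of 1.51 ± 0.66 (SE, edgeR unadjusted p = 0.0482, adjusted p = 0.969). By batch the 97Q sums were 68.1, 161 and 10.4 CPM and the 25Q sums 20.7, 14.7 and 13 CPM, so batch 3 went the other way, and 1 cell held 61.6% of the 97Q batch 2 sum. Without glial-rich neurons Gclm was at 1.38 (edgeR unadjusted p = 0.107). Cell 9 is in neither group, but all 4 groups share an estimate of the spread. Without cell 9 Gclm was at 1.68 (edgeR unadjusted p = 0.0507), and no gene was called. Prdx1 was at 0.69 ± 1.03 with cell 9 and 0.68 ± 0.22 without it (SE, edgeR unadjusted p = 0.518 and 0.0105). It was higher in 97Q in all 3 batches, by 0.57, 0.82 and 0.80 on the log2 scale. Of the 39 members 28 were higher in 97Q, with a median log2 fold change of 0.33, against 52.4% of genes and a median of 0.06. The medians within batches 1, 2 and 3 were 0.14, 0.85 and 0.18. Batch 2 has 3 and 4 cells in these groups. Gstm1, Txnrd2, Gstm5, Gsr and Park7 had the next smallest p, from 0.0564 to 0.0989 unadjusted in edgeR. Of the 58 other pathway genes tested, 34 were higher and none called.

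RGFP109 in 97Q neurons was set against vehicle in the same fit. No member was called in edgeR, nor any gene (0%), and the lowest adjusted p was 0.999. Of the members 1, Gclc, passed an unadjusted p of 0.05, against 2.48% of genes. Gclc was 62.5, 79.5 and 23.1 CPM with RGFP109 and 23.3, 36.8 and 9.5 CPM with vehicle in batches 1 to 3, higher in 3 of 3 batches. Its log2 fold change was 1.39 ± 0.55 (SE, edgeR unadjusted p = 0.0315, adjusted p = 0.999), and 1.18 without cell 9 (edgeR unadjusted p = 0.08). DESeq2 called Gclc at 1.42 (adjusted p = 0.00914), and at 1.21 without cell 9 (adjusted p = 0.0397). Nqo1 and Slc7a11 were also called by DESeq2 (adjusted p = 0.0104 and 0.00539), and without cell 9 neither was, at 0.985 and 1. Over all genes DESeq2 called 109, and 69 without cell 9. In the batch 2 sum Nqo1 stood at 916 CPM with RGFP109 against 1.27 CPM with vehicle, and Prdx1 at 21185 CPM against 728 CPM; both rest on cell 9. Nqo1's edgeR log2 fold change was 6.02 with it and 0.11 without it, and Prdx1's was 2.54 with it and -0.21 without it. Of the members 19 were higher (median -0.01, against 48% of genes and a median of -0.04), and 15 without cell 9 (median -0.25, against 46.3% and -0.08). Among the other pathway genes 26 of 58 were higher, with and without cell 9, and none called.

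RGFP109 in 25Q neurons gave 0 members and 0 genes called (0%), with a lowest adjusted p of 1 among members in edgeR, and DESeq2 called 0 members and 152 genes. Of the members 2 passed the unadjusted threshold, against 2.52% of genes. Prdx6 was 1092, 1922 and 654 CPM with RGFP109 against 894, 146 and 322 CPM with vehicle, a log2 fold change of 1.62 ± 0.62 (edgeR unadjusted p = 0.028, adjusted p = 1). Without glial-rich neurons it was 1.07 (edgeR unadjusted p = 0.206), and those were 3 of 23 RGFP109 neurons and 8 of 29 vehicle neurons. Prdx2 was 524, 448 and 599 CPM with RGFP109 against 577, 1020 and 821 CPM with vehicle, a log2 fold change of -0.60 ± 0.26 (edgeR unadjusted p = 0.0428, adjusted p = 1). Of the members 26 were higher, with a median of 0.18, against 50.1% of genes and a median of 0.002. Of the other pathway genes 37 of 58 were higher and none was called.

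Whether RGFP109 acted differently in 97Q than in 25Q neurons was tested as an interaction. No member and no gene was called (0%), and 1 member passed the unadjusted threshold against 2.6% of genes, and DESeq2 called 1 member and 70 genes. In both it was Gclc, with an edgeR log2 difference of 1.90 ± 0.77 (edgeR unadjusted p = 0.0346, adjusted p = 0.998), and 1.68 without cell 9 (edgeR unadjusted p = 0.0777). Members higher were 14 of 39, against 48.4% of genes, and 12 without cell 9. Txnrd1 had a log2 difference of 1.14 (edgeR unadjusted p = 0.077), 1.10 without cell 9 (edgeR unadjusted p = 0.0925) and 1.88 without glial-rich neurons (edgeR unadjusted p = 0.0255).

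**Figure D5:**
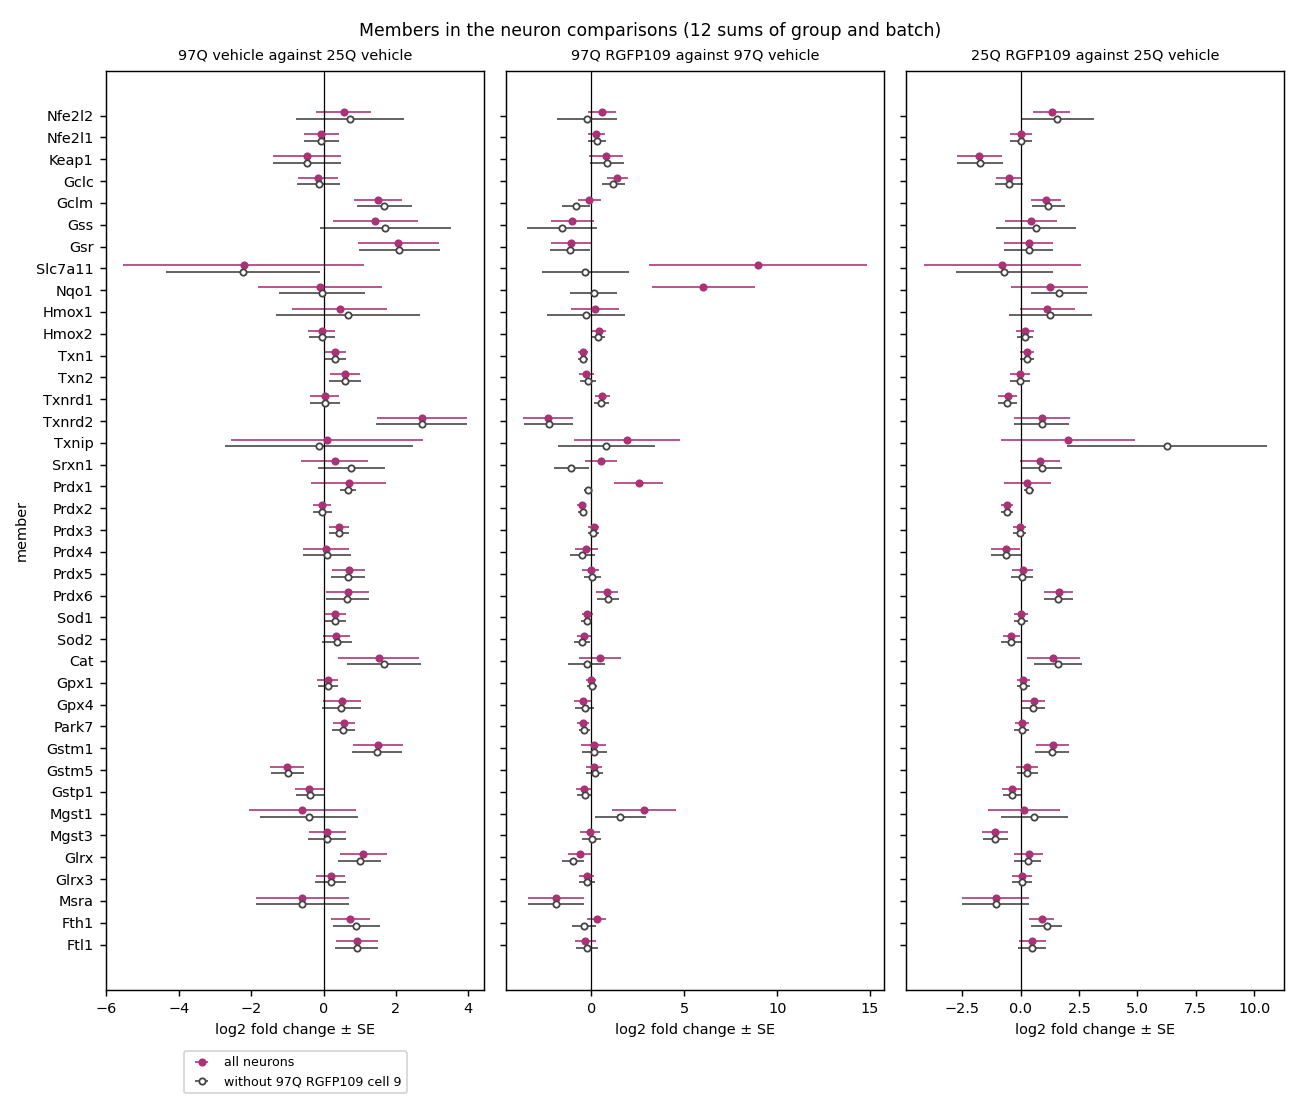
Log2 fold change ± SE of each member in 3 neuron comparisons, edgeR on 12 sums, filled with all neurons and open without 97Q RGFP109 cell 9; the horizontal scales differ. Nqo1, Prdx1 and Slc7a11 move left without cell 9 in the middle panel, and no member passed the adjusted threshold.

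25Q with vehicle against empty vector was compared in batch 3 with 1 sum each and no test. By the 4-fold rule 6 of the 38 members differed. Higher in 25Q were Nqo1 (3.31 against 0.234 CPM), Hmox1 (14.9 against 3.6 CPM), Txnip (3.53 against 0.748 CPM) and Prdx4 (36.5 against 4.89 CPM). Lower were Keap1 (6.35 against 29.8 CPM) and Txnrd2 (2.77 against 25 CPM). The backgrounds were 6.97% of genes higher and 6.34% lower. The filter was that of the astrocyte comparison. Nqo1 and Txnip passed it only through the astrocyte sum, which is in neither group here. Cell medians were 0 in both groups for Nqo1, 0.157 against 0 CPM for Hmox1, 0.168 against 0 CPM for Txnip and 4.87 against 4.97 CPM for Keap1. They were 21.8 against 0.263 CPM for Prdx4 and 1.08 against 18.6 CPM for Txnrd2. A single cell held 50.6% of the empty vector Keap1 sum and 95.6% of the 25Q Nqo1 sum.

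Batches 1 and 3 were compared by overlap of sums, with no test. Of the 4 huntingtin groups, batch 1 sums were all above batch 3 sums in 7 of the 39 members, against 12.6% of genes: Nfe2l2, Gclm, Gsr, Txnrd1, Txnrd2, Sod2 and Fth1. Fth1 was 2217 to 2460 CPM in batch 1 and 340 to 679 CPM in batch 3. Txn2, Prdx3 and Gstm5, 3 of the 39, were all lower, against 6.61% of genes. Genes as a whole also differed by batch, and no trait of the members is read from these counts.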

How the data were processed

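The deposited table holds raw whole-number counts per gene and cell made by the authors; per the submitters' processing notes the tools were FastQC, Trimmomatic 0.36, STAR 2.5 and HTSeq 0.9.1, with GRCm38/mm10. The sources used here do not give strand settings. Symbols, coordinates, exon lengths and overlaps came from GENCODE M21 and promoters from RefSeq.

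Counts were summed per group and batch (12 sums of 3 to 15 cells) and tested with edgeR 4.0.16 (TMM, quasi-likelihood, robust) with group and batch terms, in genes passing edgeR's expression filter with a count in at least 20% of cells. The labels name the batch that pairs the sums, and deviations of sums in a batch correlated at 0.107 to 0.298. P-values measure only the spread that the group and batch terms leave among these 12 sums (residual degrees of freedom 6). The animals of the batches are not stated. Astrocyte comparisons used CPM of sums, with a floor of 3 counts for sums of 0; intervals are for counting error only. DESeq2 1.42.0 was an alternative.

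The members, lists and tests were chosen with earlier results of these data known. Named members were those past the threshold or with the 6 smallest p per comparison, those 4-fold apart between astrocytes and neurons, 9 pathway genes, the 5 most abundant per kb, and the 5 other genes of largest fold. Alternatives leaving out cell 9 and cell 22 were chosen after seeing the data. The test scripts were checked on simulated data. For edgeR the simulated counts had large changes, no batch effect and a spread far below that of these data. The common biological coefficient of variation here was 0.93. That check therefore cannot say which changes the test could find at the real spread.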

Additional observations from a re-analysis of the deposited data

Results flagged for a closer look

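In sets of 4 to 10 cells of 1 group and batch, the 9 pathway genes always named were searched for a cell far from the others on the log2(CPM + 1) scale, and 21 flags arose in 72 sets. Chance flags about 1 in 20 sets of continuous values, a rate that does not hold for sets full of zeros: of 15 flags for a highest cell, 12 had every other cell under 1 CPM, so no excess can be read from the number. The library 97Q RGFP109 cell 9 was the highest of its 4 batch 2 cells in Nfe2l2 (53.6 CPM), Nqo1 (2654 CPM), Hmox1 (15.7 CPM) and Slc7a11 (857 CPM). Other Nqo1 cells above their own set were 97Q vehicle cell 7 (36.4 CPM), 25Q RGFP109 cell 6 (61.6 CPM) and cell 12 (28.4 CPM), 25Q vehicle cell 5 (49.1 CPM) and empty vector cell 3 (1.83 CPM). For Slc7a11 the cells above their own set were 97Q vehicle cell 7 (13.5 CPM), 25Q vehicle cell 11 (1.89 CPM) and 25Q RGFP109 cell 11 (0.398 CPM), the last far too low to call high. Hmox1 in 25Q vehicle cell 14 (6.07 CPM), Srxn1 in 25Q vehicle cell 12 (24.7 CPM) and Gclc in empty vector cell 2 (92.7 CPM) were also high. Cells far below the others were 97Q RGFP109 cell 10 for Gclc (0 CPM), 25Q RGFP109 cell 2 for Keap1 (0 CPM), cell 5 for Gclm (0 CPM) and cell 4 for Txnrd1 (3.89 CPM), and 25Q vehicle cell 3 for Keap1 (1.74 CPM) and cell 4 for Txnrd1 (26.8 CPM).

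Txnrd1 was higher with RGFP109 than with vehicle in all 3 batches of 97Q neurons and lower in all 3 batches of 25Q neurons. The difference between the RGFP109 effects on Txnrd1 in 97Q and 25Q was 1.14 ± 0.58 on the log2 scale (SE). Its edgeR adjusted p was 0.998, so the test did not call it. Without glial-rich neurons it was 1.88 (edgeR unadjusted p = 0.0255).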

How the results depend on the processing

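For the neuron comparisons edgeR called 0 genes with DESeq2 size factors, with no replicate block, with thinned cells, without glial-rich neurons, without cell 9 and with each batch left out (lowest 0, highest 0), and 1 gene with no low-count filter, in 97Q RGFP109 against 97Q vehicle. DESeq2 called 213 genes in 97Q against 25Q, 109 for RGFP109 in 97Q, 152 for RGFP109 in 25Q and 70 for the difference of the drug effects, and without cell 9 called 214, 69, 161 and 53. Members called by DESeq2 were 3 for RGFP109 in 97Q and 1 for the difference, and 1 and 1 without cell 9. With batches left out in turn, the members' median log2 fold change was 0.16 to 0.46 in 97Q against 25Q, -0.13 to 0.12 for RGFP109 in 97Q, -0.004 to 0.41 for RGFP109 in 25Q and -0.27 to -0.10 for the difference. Prdx1 for RGFP109 in 97Q ranged from -0.34 to 3.73 with batches left out and changed sign without batch 2 (-0.34), without cell 9 (-0.21) and in DESeq2 without cell 9 (-0.18). Nqo1 in the difference did so under the same settings (-0.68, -1.52 and -1.47), with a range of -0.68 to 6.99 over batches left out. Batch 2 holds cell 9; the causes of the other changes were not tested.

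At 2-fold, 15 of 38 members were higher and 1 lower in astrocytes, with 1445 and 2516 of 11816 genes. Genes with no overlap of cells above neurons were 22 without cell 22 and 51 without glial-rich neurons, of which 3 and 4 were members. In 25Q vehicle against empty vector, 2-fold gave 1938 of 11816 genes higher and 2084 lower. Of the 38 members 6 were higher and 5 lower. Medians of cells gave 2104 genes lower, with 5 members higher and 4 lower. The genes higher by medians of cells are not given here, so nothing is read from the 5 members. Batch 2 sums hold 3 or 4 cells, so a single cell can set them.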
